A study of Rattus norvegicus with 16 samples.

Results

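The RNA of 3 genes chosen for their place in antigen presentation was followed in bulk RNA-Seq of rat kidney. They were chosen by Ensembl gene ID, 3 of the 32623 IDs in both deposited tables, as class II (ENSRNOG00000018735 and ENSRNOG00000032844) and class I (ENSRNOG00000017123) genes of the major histocompatibility complex (MHC) pathways. ENSRNOG00000032844 was paired with RT1-Da, a class II alpha chain, because its deposited TPM in 7 libraries equaled the values the study lists for that symbol and no other. No source used here pairs ENSRNOG00000018735 or ENSRNOG00000017123 with a symbol, so both are given by ID alone, and the class they were chosen for could not be checked. All 3 IDs passed the filter on low counts.

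The 16 libraries came from whole kidney tissue of Sprague-Dawley rats in 4 groups of 4 (control, DOCA, finerenone and spironolactone), and the labels give an age of 6 weeks for each. In the study's text that figure is the time on treatment, so the age of the rats is unsure. Control rats had a sham operation. Rats of the other 3 groups had a kidney removed and received deoxycorticosterone acetate (DOCA) with salt in the drinking water. The study calls DOCA a precursor of aldosterone and also speaks of its direct effects through the mineralocorticoid receptor. The DOCA group received no further drug, and finerenone, a nonsteroidal mineralocorticoid receptor antagonist, or spironolactone, a steroidal one, was given in addition in the remaining groups. Every comparison with control therefore covers the operation, DOCA and salt together.

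MHC class II molecules are pairs of an alpha and a beta chain that present peptides from engulfed material to CD4 T cells. They are found mainly on dendritic cells, macrophages and B cells, although kidney tubule cells can be induced to make them, and the transactivator Ciita controls their genes. MHC class I molecules join a heavy chain to a light chain on almost all nucleated cells and present peptides that the immunoproteasome cuts and the Tap transporter carries to them. Interferon-gamma raises both pathways. In the rat the MHC is called RT1, and some of its genes, mainly those of class I, are near-identical copies between which reads may be split, so the level of each class I RT1 gene is uncertain.

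Total counts were between 7063146 and 8056935 per library, except for 10932887 in spironolactone replicate 4. Spironolactone replicate 4 and DOCA replicate 4 were absent from the values the study lists and entered no test, but their values are given. Expression is given as TPM (relative transcript abundance, scaled for gene length), which allows levels of genes to be compared, and as CPM (counts relative to a fixed library total, on the TMM scale of edgeR), which was used for tests between groups. A gene counts as called, in the edgeR quasi-likelihood test of 14628 IDs, where the log2 fold change was 0.5 or more in size and the p adjusted by Benjamini and Hochberg was below 0.05. The tissue label was checked with Scnn1a and Scnn1b, subunits of the epithelial sodium channel of the distal nephron, which were found in all 16 libraries at 15.62 to 51.74 TPM and 15.69 to 34.84 TPM.

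The promoter of RT1-Da is shown because class II promoters carry a paired element through which Ciita acts. Between finerenone and spironolactone the 7 class II genes with a symbol all had a negative change. So had all 6 class I heavy chains and all 10 genes of class I peptide supply with a symbol. Whether the element bears on these changes was not tested. RefSeq promoters (rat assembly GRCr8, 250 bases before the start) were searched on both strands for the letters ACNGATG, the core of the X box, with ATTGG, the Y box, starting 25 to 35 bases after it, a spacing chosen after these promoters had been seen. The motifs do not overlap. Both in this order were present on either strand in 0.0801% of 27457 promoters. For the listed genes only the strand shown was counted. There both were present in 4 of the 6 class II genes with an entry, in 2 of 5 class I heavy chains and in 0 of 8 genes of class I peptide supply. Capitals mark both cores, in the whole RT1-Da promoter and in a short window around them for the other genes:
RT1-Da (chr20:4515165-4515414, plus strand): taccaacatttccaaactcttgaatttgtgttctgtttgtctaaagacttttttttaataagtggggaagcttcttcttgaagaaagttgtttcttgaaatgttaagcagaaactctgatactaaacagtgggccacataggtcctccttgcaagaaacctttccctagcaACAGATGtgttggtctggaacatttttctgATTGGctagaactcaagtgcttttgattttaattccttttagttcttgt
RT1-Db1 (chr20:4560228-4560286, minus strand): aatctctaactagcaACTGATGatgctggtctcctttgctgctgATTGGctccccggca
RT1-Bb (chr20:4604165-4604223, minus strand): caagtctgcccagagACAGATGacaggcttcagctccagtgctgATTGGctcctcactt
RT1-DMa (chr20:4712385-4712444, minus strand): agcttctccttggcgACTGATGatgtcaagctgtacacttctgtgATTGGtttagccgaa
RT1-CE10 (chr20:3385065-3385124, minus strand): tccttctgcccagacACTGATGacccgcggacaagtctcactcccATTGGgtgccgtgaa
RT1-M3-1 (chr20:1333374-1333433, minus strand): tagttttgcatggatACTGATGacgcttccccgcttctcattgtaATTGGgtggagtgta
The first core alone occurred in 8.38% and the second in 34.3% of promoters. A match describes the letters, and no binding was measured.

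ENSRNOG00000018735 was the most abundant of the 3 IDs in every library but finerenone replicate 3, and among all IDs of a library it ranked between 44 and 169 by TPM. ENSRNOG00000017123 ranked between 143 and 244, and RT1-Da between 264 and 953. RNA at this level is far above the floor of 3 counts, which was 0.247 to 0.485 CPM. The lowest count in any library was 4939 for ENSRNOG00000018735, 889 for RT1-Da and 6261 for ENSRNOG00000017123, so the spread between rats, not counting error, sets the precision.

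RT1-Da had 129.49, 138.14, 122.28 and 232.79 TPM in control replicates 1 to 4. It had 402.37, 301.1 and 497.57 TPM in DOCA replicates 1 to 3 and 381.64 in DOCA replicate 4. With finerenone the values were 230.32, 217.07, 189.57 and 208.15 TPM, and with spironolactone 372.36, 477.14, 469.91 and, in replicate 4, 386.09 TPM. In TPM the DOCA and spironolactone libraries stood above all control and finerenone libraries. Many IDs did so among the libraries tested, as 53.6% lay above all controls in DOCA and 53.0% in spironolactone. Finerenone lay below all DOCA libraries for 42.4% of IDs and below all spironolactone libraries for 41.6%. On the CPM scale of the tests DOCA and control overlapped for RT1-Da, with 244 CPM in DOCA replicate 2 and 256 CPM in control replicate 4. Finerenone libraries lay above control replicates 1 to 3 and below control replicate 4.

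ENSRNOG00000018735 had 801.92, 868.02, 853.86 and 1424.66 TPM in control replicates 1 to 4. In DOCA replicates 1 to 3 it had 1856.38, 1452.56 and 2043.37 TPM and in replicate 4 it had 1237.93. Finerenone libraries held 1139.15, 938.91, 727.59 and 803.7 TPM, and spironolactone libraries 1434.37, 1734.69, 1943.81 and, in replicate 4, 1486.74. Finerenone and control libraries overlapped, and so did DOCA and spironolactone libraries. DOCA replicate 4 fell below control replicate 4.

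ENSRNOG00000017123 had 515.84, 525.36, 542.08 and 728.53 TPM in control replicates 1 to 4. It had 848.67, 866.22 and 923.24 TPM in DOCA replicates 1 to 3 and 855.65 in replicate 4. Finerenone libraries were close to each other at 764.93, 733.65, 748.25 and 762.63 TPM, and spironolactone libraries had 904.3, 947.99, 881.43 and, in replicate 4, 841.19 TPM. In TPM the finerenone libraries therefore lay above all controls and below all DOCA and spironolactone libraries. TPM of many genes were shifted between the groups in the same way. Among the 14 libraries tested, all DOCA libraries lay above all controls for 53.6% of the IDs tested, all spironolactone libraries above all controls for 53.0% and all finerenone libraries above all controls for 10.2%, and finerenone lay below all DOCA libraries for 42.4% and below all spironolactone libraries for 41.6%. For this reason the tests between groups were made on the TMM scale, on which ENSRNOG00000017123 overlapped in every comparison.

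**Figure D1:**
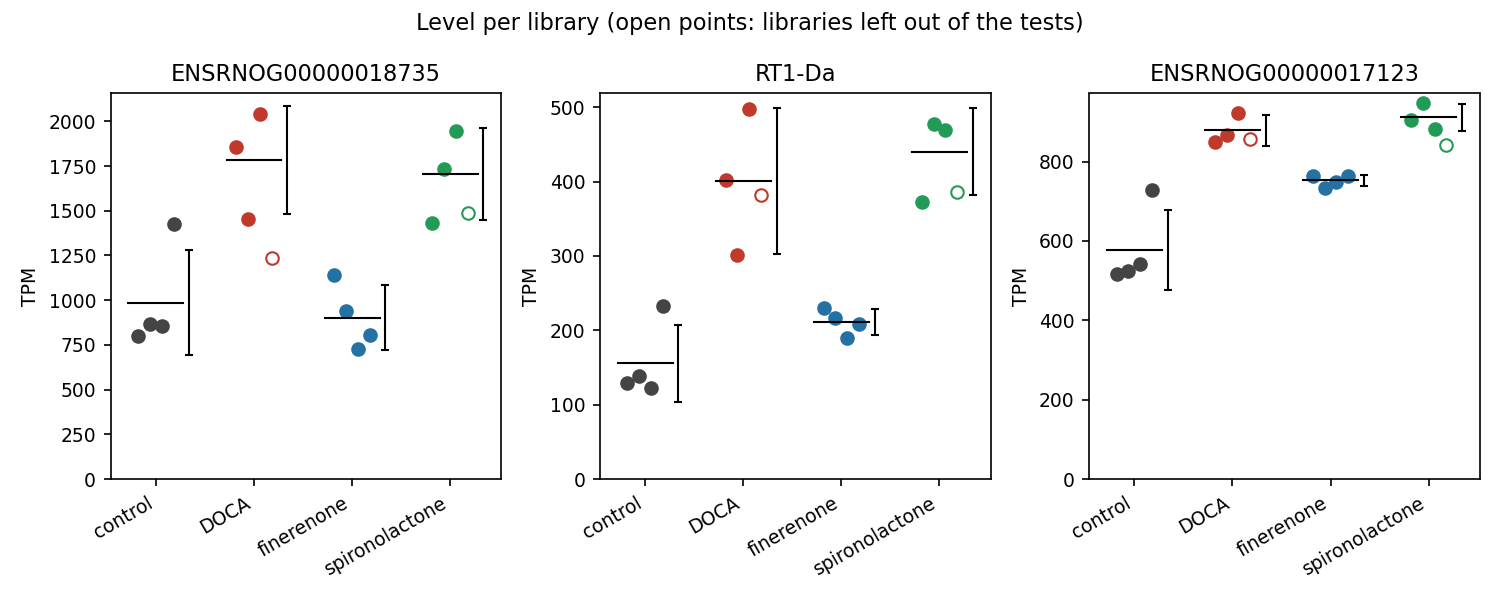
TPM (y axis, from 0) of the 3 IDs in each of the 16 libraries by group. Horizontal lines and error bars are the mean and SD of the 14 libraries tested, and open points are the 2 libraries left out. Control replicate 4 is the highest control in each panel, at 1424.66, 232.79 and 728.53 TPM.

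Group means with their SD are given over the libraries tested (n = 4 for control and finerenone, n = 3 for DOCA and spironolactone). RT1-Da averaged 156 ± 51.8 TPM in control rats, 211 ± 17.1 with finerenone, 400 ± 98.3 with DOCA alone and 440 ± 58.5 with spironolactone. ENSRNOG00000018735 ranked the groups otherwise, with 902 ± 180 TPM with finerenone, 987 ± 293 in control rats, 1704 ± 256 with spironolactone and 1784 ± 302 with DOCA alone. ENSRNOG00000017123 averaged 578 ± 101 TPM in control rats, 752 ± 14.5 with finerenone, 879 ± 39.0 with DOCA alone and 911 ± 33.8 with spironolactone. For every ID the DOCA and spironolactone means were neighbors in this order and differed by less than their SDs.

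In DOCA compared with control rats, RT1-Da was called higher, 1.80-fold, whereas neither ID without a symbol was called. This comparison sets the disease model against the sham-operated kidney. RT1-Da changed by 0.85 ± 0.22 (SE) on the log2 scale (adjusted p = 0.00764, edgeR quasi-likelihood test). Of all IDs tested 26.7% were called in this comparison, and 15.4% were called higher. ENSRNOG00000018735 and ENSRNOG00000017123 differed by 0.32 ± 0.21 and 0.09 ± 0.11, with adjusted p of 0.268 and 0.544 in the same edgeR test. RT1-Da received its symbol from a list the study chose for a difference in this very comparison, so its call is not independent evidence. Control replicate 4 decided the outcome for ENSRNOG00000018735, which was called without that library at 0.55 (edgeR adjusted p = 0.0211), and RT1-Da then stood at 1.10.

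With spironolactone the same picture was seen against control, and none of the 3 IDs was called against DOCA alone. RT1-Da was called higher, 1.99-fold or 0.99 ± 0.22 (SE) on the log2 scale (edgeR adjusted p = 0.00291), in a comparison in which 24.6% of IDs were called and 14.7% called higher. Its CPM was higher in all spironolactone than in all control libraries, as was that of 20.6% of IDs. ENSRNOG00000018735 and ENSRNOG00000017123 differed from control by 0.27 ± 0.21 and 0.14 ± 0.11 (edgeR adjusted p of 0.357 and 0.342). From DOCA alone the 3 IDs differed by -0.05 ± 0.23, 0.15 ± 0.23 and 0.05 ± 0.12 in the order ENSRNOG00000018735, RT1-Da and ENSRNOG00000017123. Of all IDs 0% were called by edgeR between spironolactone and DOCA, where 578 had an unadjusted p under 0.05, and DESeq2 called 11 and limma-voom 0. The comparisons with control share the control libraries and are not independent of each other.

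Between finerenone and spironolactone RT1-Da alone was called, with less RNA under finerenone. RT1-Da was at 0.629 times the spironolactone level, or -0.67 ± 0.21 (SE) on the log2 scale (edgeR adjusted p = 0.0468), in a comparison in which 11.4% of all IDs were called. Of the 2247 IDs that were called higher in DOCA than in control, as RT1-Da was, 36.5% were called lower here and the median log2 fold change was -0.61. The call was lost, with edgeR adjusted p of 0.0553 to 0.139, on leaving out any of 10 of the 14 libraries, which were control replicates 1 and 2, DOCA replicate 1 and each finerenone and spironolactone library. ENSRNOG00000018735 differed by -0.52 ± 0.21 (edgeR adjusted p = 0.108) and ENSRNOG00000017123 by 0.12 ± 0.11 (edgeR adjusted p = 0.511), which was -0.11 on library size alone. Both class II IDs had lower CPM in all finerenone than in all spironolactone libraries, as had 14.3% of the IDs tested. Without control replicate 4 the SE of ENSRNOG00000018735 was 0.16 and it was called as well, at -0.52 (edgeR adjusted p = 0.0307).

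Finerenone compared with DOCA alone gave no call among the 3 IDs. The log2 fold changes were -0.57 ± 0.21 (SE) for ENSRNOG00000018735, -0.52 ± 0.22 for RT1-Da and 0.17 ± 0.11 for ENSRNOG00000017123, with edgeR adjusted p of 0.0732, 0.106 and 0.312, while 13.7% of all IDs were called. Both class II IDs had lower CPM in every finerenone library than in DOCA replicates 1 to 3, as had 16.5% of the IDs tested, but ENSRNOG00000018735 overlapped once DOCA replicate 4 was counted. They passed the threshold without control replicate 4 (edgeR adjusted p of 0.0178 and 0.0167), and ENSRNOG00000018735 also without finerenone replicate 1 (edgeR adjusted p = 0.0495). The change of ENSRNOG00000017123 was -0.09 on library size alone.

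Between finerenone and control, RT1-Da differed by 0.32 ± 0.20 (SE) on the log2 scale, ENSRNOG00000018735 by -0.25 ± 0.20 and ENSRNOG00000017123 by 0.26 ± 0.10, with edgeR adjusted p of 0.396, 0.521 and 0.154. None was called, and 4.18% of all IDs were. Without control replicate 4, RT1-Da was called higher at 0.58 (edgeR adjusted p = 0.0251), and ENSRNOG00000017123 had an adjusted p of 0.0108 with a change of 0.39, below the minimum fold change.

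**Figure D2:**
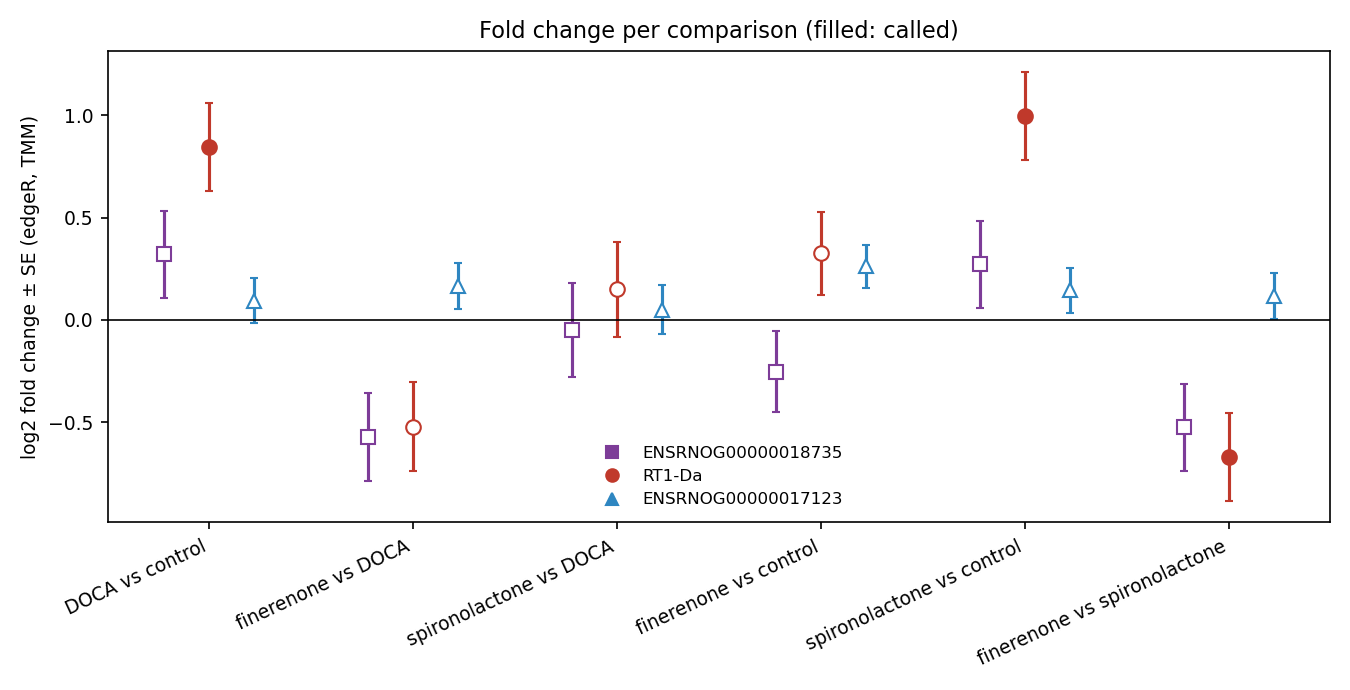
Log2 fold change with its SE (y axis) of the 3 IDs in the 6 comparisons between groups (x axis), from the edgeR fit of 14 libraries. Filled symbols passed the threshold, which RT1-Da alone did, in DOCA vs control (0.85), spironolactone vs control (0.99) and finerenone vs spironolactone (-0.67).

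Each class II ID was compared with ENSRNOG00000017123, the 1 ID chosen for class I, by the ratio of TPM within each library. This ratio does not depend on the scaling between libraries. It does not compare the classes as a whole, and how often other pairs of IDs separate the groups was not counted. Among genes with a symbol, selected for a difference between DOCA and control, the median log2 fold change there was 0.75 for class II. It was 0.78 for class I heavy chains and 1.17 for class I peptide supply and loading. The ratio of RT1-Da to ENSRNOG00000017123 averaged 0.265 ± 0.0397 (SD) in 4 control and 0.281 ± 0.0220 in 4 finerenone libraries, against 0.454 ± 0.0973 in 3 DOCA and 0.483 ± 0.0632 in 3 spironolactone libraries. DOCA and spironolactone libraries thus lay at 0.348 to 0.539, above all control and finerenone libraries at 0.226 to 0.320. The log2 ratio differed by 0.76 ± 0.22 (SE) between DOCA and control, by 0.87 between spironolactone and control, by -0.67 between finerenone and DOCA and by -0.78 between finerenone and spironolactone. For each of these the 2-sided exact permutation test gave p = 0.0286, which groups of 4 and 3 cannot go below. Adjusted by Benjamini and Hochberg over the 12 ratio comparisons it was 0.0686, so none passed 0.05. To pass, most of the 12 would have had to reach this lowest p, and spironolactone vs DOCA could not go below 0.1. The lack of a pass therefore decides little. As RT1-Da received its symbol from a list chosen for DOCA against control, its ratio in that comparison is not independent evidence.

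The ratio of ENSRNOG00000018735 to ENSRNOG00000017123 averaged 1.20 ± 0.233 (SD) in 4 finerenone and 1.68 ± 0.186 in 4 control libraries, against 1.87 ± 0.312 in 3 spironolactone and 2.03 ± 0.302 in 3 DOCA libraries. Here finerenone lay below control, with a difference of -0.50 on the log2 scale and all 4 finerenone below all 4 control libraries (2-sided exact permutation test, p = 0.0286, adjusted p = 0.0686). Differences from DOCA and spironolactone were -0.77 and -0.65, each with an exact permutation p of 0.0571 and an adjusted p of 0.0980. Between DOCA and control the difference was 0.26 (exact permutation p = 0.171). How often other pairs of IDs separate finerenone from control was not counted.

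The ratio between both class II IDs differed between control and the other groups. ENSRNOG00000018735 was present at 6.12 to 6.98 times the TPM of RT1-Da in control libraries and at 3.24 to 4.95 times in the 12 libraries of the other groups. All 12 libraries from rats with DOCA, salt and a kidney removed were thus below all 4 controls, whichever drug was given. How often other pairs of IDs separate the groups in this way was not counted. RT1-Da, the denominator, was called higher in DOCA and spironolactone than in control, whereas ENSRNOG00000018735 was not. This ratio was formed after its values were seen and was not tested.

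**Figure D3:**
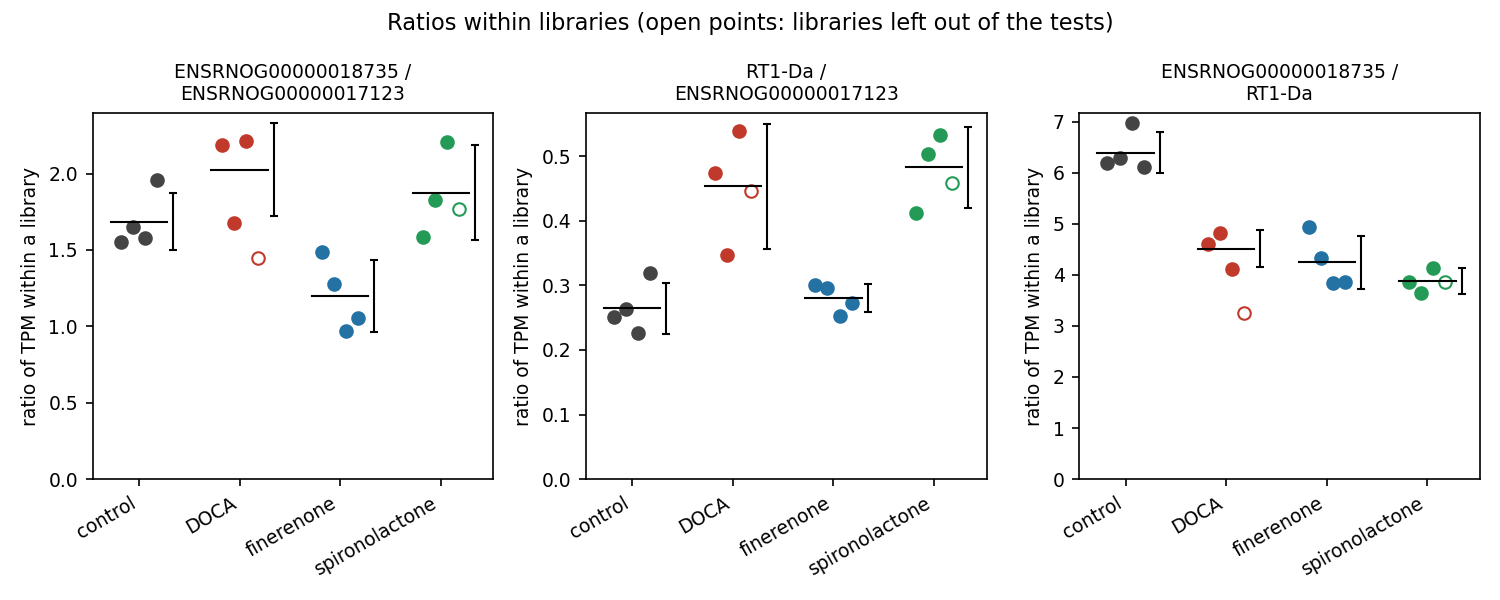
Ratio of TPM of one ID to another within each library (y axes, from 0) by group, with mean and SD of the libraries tested, and open points for the 2 libraries left out. RT1-Da to ENSRNOG00000017123 is high in DOCA and spironolactone libraries (0.348 to 0.539), whereas ENSRNOG00000018735 to RT1-Da is high in control libraries only (6.12 to 6.98).

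Other genes of the pathways were taken from lists of their known members, as far as the study's values paired an ID with the symbol. Their fold changes are on the log2 scale. Those values are of genes the study called between DOCA and control. Counts of calls in that comparison are therefore not independent evidence and are given as a description. Finerenone or spironolactone compared with control shares the control libraries with that choice, so counts there are a description as well. Of all IDs 14.7% were called higher with spironolactone and 3.33% with finerenone than in control, but neither share allows for that choice. The comparison of finerenone with spironolactone did not enter that choice, but genes high in DOCA were more often lower with finerenone in general. The counts of the lists between finerenone and spironolactone are therefore to be read against the 36.5% and the median of -0.61 of the IDs called higher in DOCA, and not against the 6.84% of all IDs. Between finerenone and DOCA, which shares the DOCA libraries with that choice, the same IDs were called lower in 41.0% and had a median of -0.65, against 7.70% of all IDs called lower.

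Of 14 class II genes on the list, 7 had a symbol, RT1-Da among them. In DOCA compared with control 6 were called higher, with a median log2 fold change of 0.75 against 0.02 over all genes, and the same number were called higher with spironolactone. RT1-DMa, a chain of the peptide loading factor DM, rose by 1.40 with DOCA, and Ciita rose by 1.36, whereas RT1-Db1, a class II beta chain, was at 0.58 and not called. Between finerenone and spironolactone 3 of 7 were called lower, RT1-Da, Ciita at -0.79 and Ctss, the protease that degrades the class II chaperone, at -0.64. The list median was -0.64, close to the -0.61 of all IDs called higher in DOCA, while the median over all genes was -0.04. RT1-DMa was at -1.06, RT1-Ba at -0.52, RT1-Db1 at -0.48 and RT1-Bb at -0.47, which did not pass. Against DOCA alone 1 of 7, Ciita, was called lower with finerenone, at -0.95, and the list median was -0.52, a smaller share and a smaller change than the 41.0% and -0.65 of the IDs called higher in DOCA. No class II gene was called between finerenone and control, where edgeR gave 1 of 7 an unadjusted p under 0.05.

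Ciita averaged 1.60 ± 0.274 TPM (SD) in 4 control, 2.30 ± 0.252 in 4 finerenone, 5.27 ± 1.44 in 3 spironolactone and 5.77 ± 1.05 in 3 DOCA libraries. RT1-DMa averaged 15.8 ± 8.84, 20.1 ± 7.88, 53.3 ± 14.1 and 58.9 ± 7.51 TPM in the same order of groups. DOCA and spironolactone libraries overlapped for both genes. Ciita was at 2.06 to 2.64 TPM in finerenone libraries, above all controls at 1.21 to 1.80 TPM, as were 10.2% of IDs, whereas RT1-DMa overlapped between these groups. Without control replicate 4 all 7 class II genes were called higher with DOCA, 4 were called lower with finerenone than with spironolactone, 4 lower than with DOCA alone and 2 higher than in control. Leaving out this library also changed the spread estimated for all groups. The share of all IDs called without it is not given, here or for the lists below, so these counts are a description.

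Of 14 class I heavy chains 6 had a symbol, of which 4 were called higher with DOCA and 6 with spironolactone compared with control. RT1-CE4 (-1.23), RT1-CE10 (-1.05) and RT1-CE7 (-0.69) were called lower with finerenone than with spironolactone, with a list median of -0.73. RT1-M3-1 (-0.76), RT1-CE1 (-0.49) and RT1-A1 (-0.42) were not called there. RT1-A1 was at -0.07 between finerenone and DOCA, where RT1-CE10 (-0.67) was the one heavy chain called (2 without control replicate 4). Control replicate 4 stood apart, with a summed level of 494 CPM for the 6 heavy chains against 207 to 231 in the other controls and 361 to 411 in finerenone libraries. No heavy chain was called between finerenone and control (edgeR, 1 at an unadjusted p under 0.05, and 0 called by DESeq2 and limma-voom). Without control replicate 4 there were 4 calls, a count with no share of all IDs beside it.

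Of 15 genes of class I peptide supply and loading 10 had a symbol, and all 10 were called higher with DOCA and with spironolactone than in control. Both comparisons share the control libraries with the choice of these genes, so the counts are not independent evidence. Between finerenone and spironolactone 7 were called lower, with a median of -0.77, and between finerenone and DOCA 6. Tapbpl, a tapasin-related factor of peptide editing, was called at -1.02 against spironolactone and -0.95 against DOCA. Tap2, a subunit of the peptide transporter, averaged 7.74 ± 0.750 TPM (SD) in 4 control, 13.1 ± 3.04 in 4 finerenone, 25.4 ± 2.21 in 3 DOCA and 27.8 ± 2.61 in 3 spironolactone libraries. Tap2 (0.64) and Psmb10 (0.58), a catalytic subunit of the immunoproteasome, were called higher with finerenone than in control, where 3.33% of all IDs were. This count of 2 was 6 without control replicate 4, 1 with all 16 libraries and 0 with limma-voom, which gave 7 an unadjusted p under 0.05. Nlrc5, the class I transactivator, was at -1.07 between finerenone and spironolactone and not called, at a level of 0.388 to 1.64 TPM as group means. Psme2, a proteasome activator subunit, had the smallest change of the list, -0.39.

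In DOCA vs control and between the drugs, the fold changes of ENSRNOG00000017123 were smaller in size than those of the class I genes with a symbol. Its change was 0.09 with DOCA, against 0.52 to 1.39 in the 16 genes of both class I lists, and 0.12 between finerenone and spironolactone, against -1.23 to -0.39. Between finerenone and control its 0.26 lay within their range of 0.13 to 0.85. As those 16 were selected for a difference between DOCA and control and this ID was not, the contrast with DOCA is a description. The difference between the lists and this ID was not tested.

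**Figure D4:**
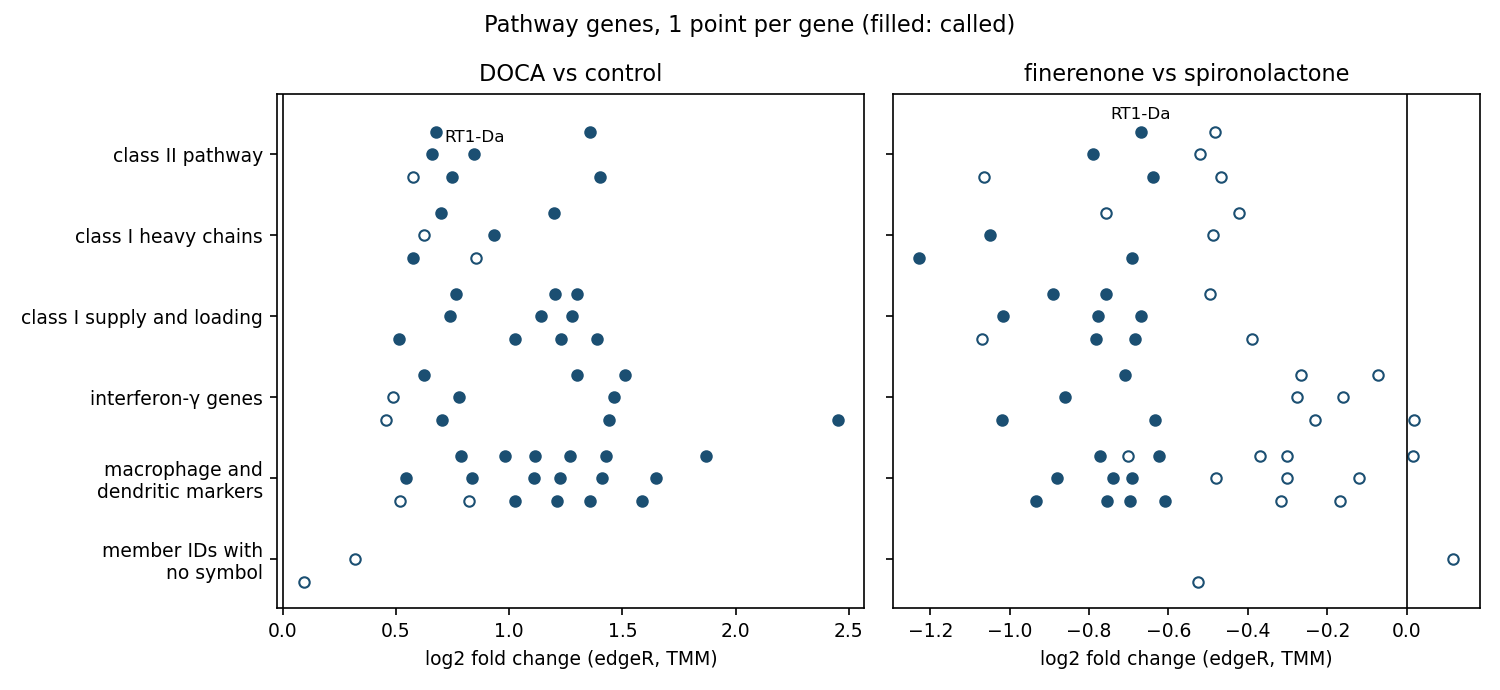
Log2 fold change (x axes, edgeR) of each paired gene of 5 lists and of the 2 IDs with no symbol, in DOCA vs control on the left and finerenone vs spironolactone on the right, 1 point per gene, filled where called. The listed genes lie right of 0 in the left panel and, except for Irf9 (0.02) and Cd86 (0.02), left of 0 in the right panel, while ENSRNOG00000017123 lies at 0.09 and 0.12.

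The interferon-gamma list holds the receptor, transcription factors and targets, of which some, such as Irf9 and Mx1, also belong to the response to other interferons. Of 14 listed genes 10 had a symbol, and 8 were called higher with DOCA. Between finerenone and spironolactone 4 were called lower, Cxcl10 (-1.02), Gbp2 (-0.86), Gbp5 (-0.71) and Irf1 (-0.63), with a list median of -0.27. Cxcl10, a chemokine for T cells, had the largest changes, 2.45 with DOCA and -1.58 between finerenone and DOCA. Irf9 was at 0.02 between the drugs. Against control 5 were called higher with finerenone, Irf8 (0.97), Irf1 (0.91), Cxcl10 (0.87), Gbp2 (0.87) and Irf9 (0.69). Of all IDs 3.33% were called higher there. The genes with a symbol were selected for a difference from the same controls, so this count is a description.

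Markers of macrophages and dendritic cells, which carry class II, were higher with DOCA as well. Of 21 markers 18 had a symbol, and 16 were called higher with DOCA and 16 with spironolactone than in control. Between finerenone and spironolactone 9 were called lower, among them Csf1r, the receptor of the macrophage growth factors, at -0.93, and Ptprc, the common leukocyte antigen, at -0.74. C1qa, a complement subunit made by macrophages, was called at -0.62, while Aif1 (-0.17) and Cd86 (0.02) did not pass. Between finerenone and control 8 were called higher, and 3.33% of all IDs were in the same fit. The count was 14 without control replicate 4 and 5 both with limma-voom and with all 16 libraries. As the markers with a symbol were selected for a difference from the same controls, these counts are a description of the markers. Their summed level was 456 to 696 CPM in control, 1059 to 1682 CPM in DOCA, 761 to 902 CPM in finerenone and 1150 to 1234 CPM in spironolactone libraries, counting all 16, and control replicate 4 and DOCA replicate 4 were the highest of their groups. No listed gene with a symbol was at 0 TPM in any library. Of 10 markers of T and B cells Cd2 alone had a symbol, and it was called higher with DOCA (0.98) and spironolactone (1.42) than in control. In whole tissue fewer cells of a type and less RNA per cell cannot be told apart, and the part of these cells in the values of RT1-Da was not tested. No gene of these lists was called by edgeR, DESeq2 or limma-voom between spironolactone and DOCA, where edgeR gave 1 interferon gene an unadjusted p under 0.05.

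Among genes with a symbol, the pattern of RT1-Da across the 16 libraries was most like those of RT1-Ba and RT1-Db1, which are also of class II. By Pearson's r of log2 CPM RT1-Ba (0.963) had rank 1 among 14628 IDs, RT1-Db1 (0.953) rank 3 and Laptm5 (0.951), a lysosomal membrane protein of leukocytes, rank 4. ENSRNOG00000018735 (0.735), the other ID chosen for class II, came only at rank 1217 for RT1-Da. For ENSRNOG00000018735 the closest genes with a symbol were RT1-Ba (0.809), Fyb1 (0.747) and RT1-Db1 (0.747), and RT1-Da (0.735) came at rank 16. Among genes with a symbol, ENSRNOG00000017123 was closest to Ifi27l2b (0.792, rank 9), Pnrc1 (0.765, rank 17) and Rtp4 (0.728, rank 30). IDs without a symbol were closer. The r of ENSRNOG00000017123 with RT1-Da was 0.480 and with ENSRNOG00000018735 0.220. These values describe 16 libraries that share the 4 groups, and similar RT1 genes may share reads.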

How the data were processed

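Whole-kidney polyA RNA was sequenced in 16 rats. Per the labels and the study's methods, the authors trimmed reads with Trim Galore 0.4.5, aligned them with STAR 2.7.3a to the rat build rn6 and used RSEM for gene quantification; the annotation is not given in the sources used here. The deposited expected counts are RSEM estimates per gene, unscaled, of which 3.14% were not whole, and were rounded. The deposited TPM carry the authors' scaling for gene length and library. The library preparation was strand-specific by the methods text, but whether the counting used it is not given in the sources used here. Replicate numbers follow the sample titles; they name rats and do not pair groups. Columns of no sample numbered 0.

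Symbols came from a supplementary sheet of the study, held shortened, whose TPM of 7 libraries matched the deposited values within 0.005; 1996 of 1997 symbols matched 1 ID, and 1969 of these are in the RefSeq table (GRCr8), which pairs 0 Ensembl IDs. Scnn1a and Scnn1b were matched through another sheet by their 14 values sorted by size, without pairing each library with its own value. This was added after the files were seen. No number from the sheets is used. None of the 12 kidney segment markers on the list was paired through the first sheet.

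The test was edgeR 4.0.16 (R 4.3.3), robust quasi-likelihood, TMM, 1 fit of 4 groups over 14 libraries, without DOCA replicate 4 and spironolactone replicate 4, on IDs whose count exceeded 4 in 3 or more libraries. The SE is the absolute log2 fold change over the square root of F, and the common biological coefficient of variation was 0.165. Log2 CPM used a prior count of 2. The test was checked on simulated counts. P-values measure the spread between rats within groups. Members and lists were chosen with earlier results of these data known. Genes were named by rule: the 3 IDs, listed genes with a symbol (examples by largest, smallest and median change between finerenone and DOCA, to which those called or at the ends of other comparisons were added after values were seen), and the 3 symbols nearest by correlation. Alternatives covered normalization, filters, DESeq2 1.42.0, limma 3.58.1 on voom and on log2(TPM + 1) and log2(TPM + 0.1), libraries, block and threshold; those for list counts were chosen after seeing the data.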

Additional observations from a re-analysis of the deposited data

Results flagged for a closer look

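Control replicate 4 stood far above the other 3 controls in each of the 3 IDs. ENSRNOG00000018735 had 1424.66 TPM in it against 801.92 to 868.02 in the others, RT1-Da 232.79 TPM against 122.28 to 138.14, and ENSRNOG00000017123 728.53 TPM against 515.84 to 542.08. The gap to the nearest control took up a share of 0.894, 0.856 and 0.877 of the group's range, above the critical value of Dixon's test for 4 samples. Of 24 sets of 4 libraries tested 3 passed, where chance gives 1.2 on average, and the 3 come from 1 library. That library was also the highest control in summed macrophage and dendritic cell markers, at 696 CPM. Why it stands apart was not tested.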

How the results depend on the processing

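RT1-Da was called higher in DOCA and in spironolactone than in control under all 28 alternatives each. Its call between finerenone and spironolactone was lost with RLE normalization (-0.66, adjusted p = 0.0513, edgeR), with no filter on low counts (-0.67, adjusted p = 0.0764, edgeR) and with libraries of the same first code number summed (-0.70, adjusted p = 0.194, edgeR). With the replicate number as a block it was -0.77 (adjusted p = 0.0301, edgeR), and the block changed no call of a member. The numbers pair no rats, so the block is a check only.

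Scales without TMM moved all genes, the median of DOCA vs control from 0.02 to 0.37 on library size alone. On library size alone ENSRNOG00000018735 passed the threshold for DOCA against control (0.67), finerenone against DOCA (-0.84), spironolactone against control (0.59) and finerenone against spironolactone (-0.75), as did RT1-Da for finerenone against DOCA (-0.79), while ENSRNOG00000017123 reversed for finerenone against DOCA (-0.092) and spironolactone (-0.11). On log2(TPM + 1) the same values were 0.88, -0.99, 0.82, -0.93, -0.89, -0.22 and -0.28, and on log2(TPM + 0.1) 0.88, -0.99, 0.82, -0.93, -0.90, -0.22 and -0.28, and ENSRNOG00000017123 passed in DOCA vs control (0.62) and spironolactone vs control (0.67) on both. In finerenone vs DOCA, ENSRNOG00000018735 passed with DESeq2 (-0.56), limma-voom (-0.59) and the 2 groups alone (-0.57), and RT1-Da with all 16 libraries (-0.54) and the 2 groups alone (-0.52).

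Leaving out each library in turn gave ranges of 0.22 to 0.55 (ENSRNOG00000018735, DOCA vs control), -0.68 to -0.42 (finerenone vs DOCA), -0.64 to -0.36 (finerenone vs spironolactone) and -0.17 to 0.050 (spironolactone vs DOCA, reversed without DOCA replicate 3, 0.048, and spironolactone replicate 1). RT1-Da ranged from -0.67 to -0.34 (finerenone vs DOCA), from 0.20 to 0.58 (finerenone vs control) and from -0.76 to -0.55 (finerenone vs spironolactone, the call kept without control replicates 3 and 4 and DOCA replicates 2 and 3). Its ratio to ENSRNOG00000017123 in spironolactone vs DOCA ranged from -0.0751 to 0.24, reversed without DOCA replicate 2. The causes were not tested. Counts of list calls moved over 1.5 times in 37 of 200 alternatives, to more calls in 33 (none was called between spironolactone and DOCA in any). Between finerenone and DOCA the class II list went from 1 to 7 and the interferon list from 2 to 8, both on log2(TPM + 1). The 4 counts that fell were those of class I supply and of macrophage and dendritic cell markers between finerenone and control, with limma-voom and with all 16 libraries. List medians kept their sign under each scaling, and in spironolactone vs DOCA those of class II (-0.03) and of macrophage and dendritic cell markers (-0.07) turned negative with all 16 libraries.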
